A study of Mus musculus with 3 samples.

Results

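The genes described here encode 8 proteins of the somatic hypermutation and class switch machinery: Ung, Neil1, Apex1, Hmces, Msh6, Exo1, Polh and Trp53bp1. They were listed by name, found by symbol in a matrix of 32285 mouse genes, and followed across B cell states and against the V identity and the constant gene of the heavy chain carried by the same cells. All 8 were in the matrix. The study sorted viable B cells from mouse spleens with a gate on GL7, an antigen of germinal centre B cells, to ask what lactate dehydrogenase A (LDHA) does in germinal centre B cells. There were 3 LDHA-sufficient and 3 LDHA-deficient mice, each stained with its own hashtag antibody, and the cells of all 6 were pooled on 1 droplet lane. The pool gave 3 libraries, of transcripts, hashtags and heavy chains. The labels name neither the Cre or promoter behind the deletion, nor the deleted part of Ldha, nor age, strain or immunisation, and they do not say in what ratio GL7-positive and GL7-negative cells were loaded.

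In germinal centres, B cells introduce point mutations into their antibody V genes and exchange the constant region of the heavy chain. Both reactions start from deamination of cytosine to uracil in antibody gene DNA. Ung cuts the uracil out and Apex1 cleaves the abasic site that remains, whereas Msh6 recognises the mismatch and Exo1 resects the strand around it. Polh, the translesion polymerase eta, then fills gaps and places most mutations at A and T. Neil1 removes oxidised bases, Hmces binds abasic sites in single-stranded DNA, and Trp53bp1 (53BP1) protects the broken ends that are joined in switching.

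Hashtags gave 1856 barcodes with a single mouse out of 2836, and 1784 of them were B-lineage cells, 233 to 358 per mouse with 1089149 to 2204904 unique molecular identifiers (UMIs). Cells were clustered without any gene of a list of 75 measured machinery genes that includes the 8. The 150 cells called germinal centre (GC) B-like had all 12 markers of that list detected in each LDHA-sufficient mouse, at a summed level of 1806 to 2392 counts per 1000000 UMIs (CPM) against 229 to 238 CPM outside the GC. In LDHA-deficient mouse 2 they had all 12 at 1860 CPM, whereas in LDHA-deficient mouse 1 they had 10 (Nt5e and Gcsam at 0) at 513 CPM, against 211 to 262 CPM outside in these 2 mice. They numbered 59, 68 and 12 in LDHA-sufficient mice 1 to 3, and 5, 5 and 1 in LDHA-deficient mice 1 to 3, which is 18.7%, 21.1% and 4.24% against 1.85%, 1.40% and 0.429% of B-lineage cells, shares that the GL7 gate can also set. LDHA-sufficient mouse 3 thus stood apart from the other 2 of its group, and results whose call or direction changed without it are given both ways. Ldha itself was at 235.8, 243.5 and 156.8 CPM in LDHA-sufficient mice against 48.8, 48.7 and 68.9 CPM in the deficient ones, with no overlap. UMIs of a gene were summed per mouse and class, since cells of a mouse are not replicates, and a higher level in such a sum cannot be told apart from more expressing cells in it.

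Across the B cell classes of LDHA-sufficient mice, the 8 genes fell into different patterns. Neil1 stood at 280 ± 77 CPM (SD, n = 3 mice) in GC B-like cells and at 13.4 ± 8.0 in activated, 22.1 ± 5.8 in follicular, 19.1 ± 2.2 in marginal zone and 37.97 ± 10.1 in interferon-response B-like cells. Hmces had the same order at the top, with 337 ± 201 CPM in GC B-like cells and class means of 21.7 to 46.7 CPM in those 4 classes. The lowest GC value of either gene, 196.0 CPM for Neil1 and 105.0 for Hmces, both in mouse 3, was above every value of these 4 classes in these mice.

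Ung and Apex1 had their highest means elsewhere. Ung stood at 77.9 ± 47.5 CPM in activated B-like cells, 42.5 ± 22.6 in GC B-like cells, 17.01 ± 9.1 in marginal zone and 2.96 ± 0.37 in follicular B-like cells. The activated and GC values overlapped within their spread. Apex1 stood at 140.7 ± 14.1 CPM in activated and 73.1 ± 14.1 in GC B-like cells, against 58.3 ± 35.4 in marginal zone and 30.7 ± 5.5 in follicular B-like cells. The GC and marginal zone values of Apex1 did not differ beyond their spread.

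Msh6 (133 ± 43 CPM) and Polh (96.9 ± 49.4 CPM) had their highest class means in GC B-like cells, with means of 20.5 to 46.5 CPM for Msh6 in the other classes apart from plasma cell-like cells, and of 12.7 to 24.3 CPM for Polh in activated, follicular, marginal zone and interferon-response cells. Exo1 was sparse, with 100 UMIs in all B-lineage cells and means of 20.8 ± 13.4 CPM in GC and 17.4 ± 9.8 in activated B-like cells, which overlapped. Trp53bp1 was nearly flat, at 40.4 ± 18.8 CPM in GC, 39.97 ± 4.88 in activated, 39.4 ± 17 in follicular and 38.1 ± 13.9 in marginal zone B-like cells. The 17 plasma cell-like cells held too few UMIs for an order, with 16 of Hmces, 4 of Neil1 and 2 of Ung. A fraction of each low level could be free RNA, whose part was not tested: the 65 cells of other lineages gave 64.9 CPM for Neil1, 53.8 for Hmces, 50.1 for Msh6, 16.7 for Ung and 14.8 for Polh.

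**Figure D1:**
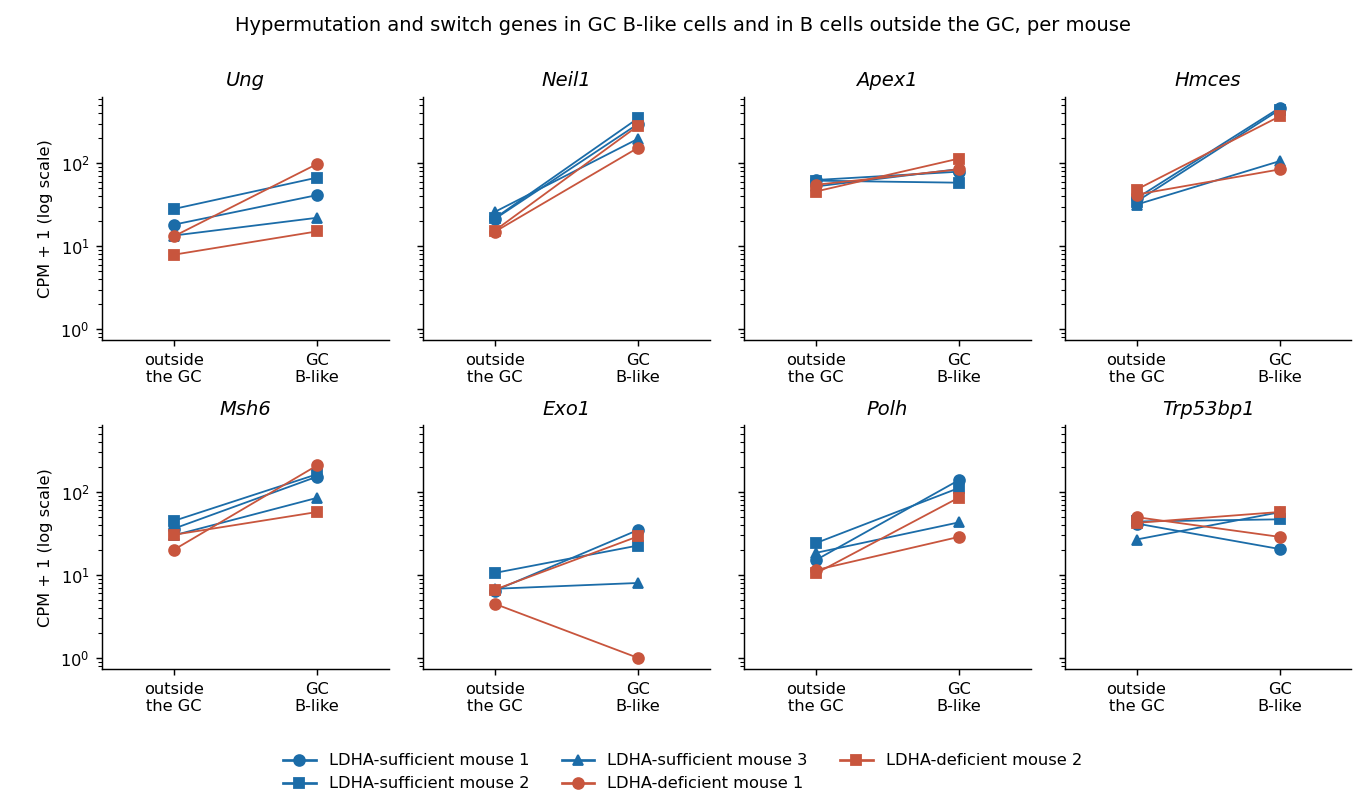
Levels of the 8 genes as CPM + 1 (CPM being UMIs of the gene per 1000000 UMIs of the sum; vertical axis, log scale) in GC B-like cells and in B cells outside the GC, 1 point per mouse and class, with a line joining the values of 1 mouse. Neil1, Hmces, Msh6 and Polh are separated between the classes in every mouse shown, whereas the Apex1 and Trp53bp1 points overlap.

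GC B-like cells were then compared with the other B cells of the same mouse, in the 5 mice with at least 5 GC B-like cells. Glycosylases came first. Neil1 measured 296.7, 347.2 and 196.0 CPM in GC cells of LDHA-sufficient mice 1 to 3 and 152.6 and 281.8 CPM in those of LDHA-deficient mice 1 and 2, against 13.9 to 24.9 CPM outside the GC. Every GC value was above every value outside, and the log2 difference was 3.56 (SE 0.22; edgeR adjusted p = 2.89e-23). Ung measured 40.3, 66.1, 21.0, 97.1 and 14.1 CPM in the same order, against 6.90 to 27.1 CPM outside. It was higher in GC cells of 5 of 5 mice although the groups overlapped, with a log2 difference of 1.23 (SE 0.32; edgeR adjusted p = 0.00146). The GC sums held 72098 and 70961 UMIs in LDHA-deficient mice 1 and 2, and 142827 in LDHA-sufficient mouse 3. The Ung values of these mice thus rest on few UMIs.

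Of the genes that act on abasic sites, Hmces rose and Apex1 did not pass the test. Hmces measured 464.5, 441.4, 105.0, 83.2 and 366.4 CPM in GC cells against 30.7 to 47.1 CPM outside, with no overlap and a log2 difference of 2.77 (SE 0.38; edgeR adjusted p = 0.000649). The values of LDHA-sufficient mouse 3 and LDHA-deficient mouse 1 were the low ones. Apex1 measured 57.2 to 112.7 CPM against 44.6 to 61.7 CPM, a log2 difference of 0.21 (SE 0.22; edgeR adjusted p = 0.497), which passed (0.53; edgeR adjusted p = 0.034) only with cell cycle genes kept in the clustering.

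In the mismatch and translesion branch, Msh6 and Polh rose. Msh6 measured 152.2, 162.8, 84.0, 208.1 and 56.4 CPM in GC cells against 19.2 to 43.9 CPM outside. Polh measured 137.9, 110.7, 42.01, 27.7 and 84.6 CPM against 9.41 to 23.1 CPM. Neither gene overlapped between classes, with log2 differences of 1.83 for Msh6 (SE 0.22; edgeR adjusted p = 1.92e-10) and 2.29 for Polh (SE 0.28; edgeR adjusted p = 1.09e-10). Exo1, with 46 UMIs in GC cells and 39 outside, was under the filter on low counts and was not tested. Trp53bp1 measured 19.5 to 56.4 CPM against 25.7 to 43.1 CPM, with a log2 difference of -0.31 (SE 0.29; edgeR adjusted p = 0.429).

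So 5 of the 7 genes tested were higher in GC B-like cells, where 33.7% of all 8173 genes tested were called in either direction and 14.3% were called higher. GC B-like cells also held more RNA, with a median of 9683 UMIs per cell against 3744 outside, and in LDHA-sufficient mice 1 to 3 69.5%, 61.8% and 50% of them were replicating by the measure below; the part of either in the result was not tested by this comparison. The classes were defined by other transcripts of the same cells, so the test is not independent of the clustering. Leaving out any 1 mouse kept the same 5 calls.

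The list of machinery genes, which includes the 8, was counted by branch. Of 68 listed genes tested, 29 rose and 2 fell in GC B-like cells, with a median log2 difference of 0.42 against -0.12 over all genes. With the 8 left out, 24 of 61 rose and 2 fell, with a median of 0.395. Uracil and base excision repair had 9 of 16 higher (Hmces, Neil1 and Ung among them) and translesion synthesis and PCNA 8 of 11 (Polh among them). Mismatch repair had 3 of 7 higher (Msh6 among them), and the double strand break response 6 of 15. End joining had 1 of 8 higher (Lig4), and the cofactors of deamination had 2 higher (Exosc3, Hnrnpk) and 2 lower (Swap70, Zmynd8) of 11. The 4 with the smallest p were the DNA ligase Lig1 (log2 difference 2.25, SE 0.19), the glycosylase Neil3 (3.24, SE 0.30), the sliding clamp Pcna (1.66, SE 0.17) and the thymine and uracil glycosylase Mbd4 (1.69, SE 0.21), with edgeR adjusted p of 3.39e-16, 5.56e-15, 6.01e-13 and 2.12e-10.

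The bases before the start sites of these genes were searched for short motifs. CAGGTG, an E-box of the kind that E proteins bind, was searched on both strands in the 250 bases before each RefSeq start (GRCm38.p6), where 17.1% of 27025 promoters hold it. Among the 7 genes with a promoter entry (Exo1 is named only), it was found in Neil1, at position -159, and in Hmces, at position -92, and not in the other 5. The E2F-type letters TTTGGCGC (in 0.437% of promoters) and TTTCCCGC (0.929%) were in none of the 7 windows. The stretches are shown 5′ to 3′ on the strand of the gene, from position -250 to -51, with the motif in capitals, read there as its reverse complement; a match is only a description.
Neil1, chr9:57148356-57148555, minus strand: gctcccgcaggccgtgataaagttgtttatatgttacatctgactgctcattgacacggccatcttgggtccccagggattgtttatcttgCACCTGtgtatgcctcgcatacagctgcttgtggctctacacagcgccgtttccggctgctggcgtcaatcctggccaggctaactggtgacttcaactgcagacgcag
Hmces, chr6:87913726-87913925, plus strand: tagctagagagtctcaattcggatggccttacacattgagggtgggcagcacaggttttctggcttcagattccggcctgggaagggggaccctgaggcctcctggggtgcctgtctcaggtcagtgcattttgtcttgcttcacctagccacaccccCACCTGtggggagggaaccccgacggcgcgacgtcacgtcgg

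Because many repair genes follow DNA replication, both classes were split by the S phase genes in each cell, after the data had been seen. A cell was counted as replicating where genes of the S phase list held at least 0.3% of its UMIs; no gene of that list is in the machinery list. LDHA-sufficient mice 1 to 3 had 41, 42 and 6 replicating GC B-like cells and 12, 14 and 11 replicating cells outside the GC. The split did not match the cells for G2/M genes, a later part of the cycle. These stood at 8505, 6370 and 5363 CPM in replicating GC cells against 2882, 4184 and 3511 CPM in replicating cells outside, and at 3307, 8048 and 11131 CPM in the other GC cells against 743, 655 and 620 CPM in the other cells outside; their part in the results was not tested.

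Among replicating cells, Neil1 and Hmces were still higher in the GC. Neil1 measured 289.6, 311.1 and 226.6 CPM in replicating GC cells and 13.1, 5.64 and 0 CPM in replicating cells outside. That is 372 UMIs against 3, a ratio of 40.1 with an exact 95% interval of 13.6 to 195 that covers counting error only, and the edgeR adjusted p was 4.91e-11. Hmces measured 484.3, 463.1 and 120.9 CPM against 78.8, 28.2 and 52.0 CPM, with no overlap and a log2 difference of 2.83 (SE 0.35; edgeR adjusted p = 4.08e-08). These were 2 of 5 genes tested, where 9.99% of all genes were called and 4.48% were called higher. Both were also called when LDHA-sufficient mouse 3 was left out (4.97 for Neil1 and 3.16 for Hmces), and Polh with them. The share of all genes called in that fit is not given, so its calls are not read as a result about these genes.

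Ung, in contrast, was lower in replicating GC cells in each of the 3 mice, at 45.9, 93.0 and 45.3 CPM against 65.6, 163.5 and 117 CPM. The ranges overlapped and the log2 difference of -0.85 (SE 0.37) did not pass (edgeR adjusted p = 0.154). Msh6 (0.47, SE 0.34; edgeR adjusted p = 0.482) and Apex1 (-0.59, SE 0.35; edgeR adjusted p = 0.342) did not pass either. Polh, under the filter, had 163 UMIs against 12 and did not overlap between the groups, while Exo1 had 42 against 16 UMIs and Trp53bp1 38 against 17. Of 37 listed genes tested here, 3 were called, all higher: Hmces, Neil1 and the repair scaffold Xrcc1 (1.16, SE 0.39; edgeR adjusted p = 0.0474). The others named by the rule, Zmynd8 (-0.79), Rev3l (0.64) and Mbd4 (1.17), had edgeR adjusted p of 0.219, 0.269 and 0.271.

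Among cells under that border, 4 of 6 genes tested were higher in the GC, where 16.5% of all genes were called and 7.2% called higher. Neil1 measured 329.2, 436.3 and 169.6 CPM in these GC cells against 21.3, 23.2 and 26.6 CPM outside, a log2 difference of 3.51 (SE 0.28; edgeR adjusted p = 1.68e-12). Hmces measured 373.1, 387.8 and 91.4 CPM against 31.1, 34.4 and 29.3 CPM (2.95, SE 0.29; edgeR adjusted p = 2.36e-09). Both were higher without any overlap.

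Polh measured 29.3, 127.8 and 39.2 CPM against 12.4, 20.4 and 17.7 CPM (1.78, SE 0.44; edgeR adjusted p = 0.00286). Msh6 measured 51.2, 88.2 and 104.4 CPM against 21.3, 34.4 and 26.6 CPM (1.29, SE 0.38; edgeR adjusted p = 0.0143). Neither overlapped, but leaving out LDHA-sufficient mouse 2 lost both calls and took the listed genes called from 11 to 6. Without mouse 3 the Msh6 call was lost (1.098; edgeR adjusted p = 0.0552), and DESeq2 called neither gene (adjusted p of 0.118 for Msh6 and 0.104 for Polh). Apex1 (-0.24, SE 0.38) and Trp53bp1 (0.06, SE 0.44) did not pass, with edgeR adjusted p of 0.754 and 0.956. Ung had 2 UMIs in these GC cells and 23 in those outside, and Exo1 2 and 10, both under the filter. Of the 60 listed genes, 10 rose and 1 (Zmynd8) fell, led by Mbd4 (2.05, SE 0.27), Neil3 (4.02, SE 0.64), the translesion polymerase Rev1 (1.59, SE 0.31) and Xrcc1 (1.39, SE 0.35), with edgeR adjusted p of 2.83e-07, 8.21e-06, 0.000144 and 0.00316.

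**Figure D2:**
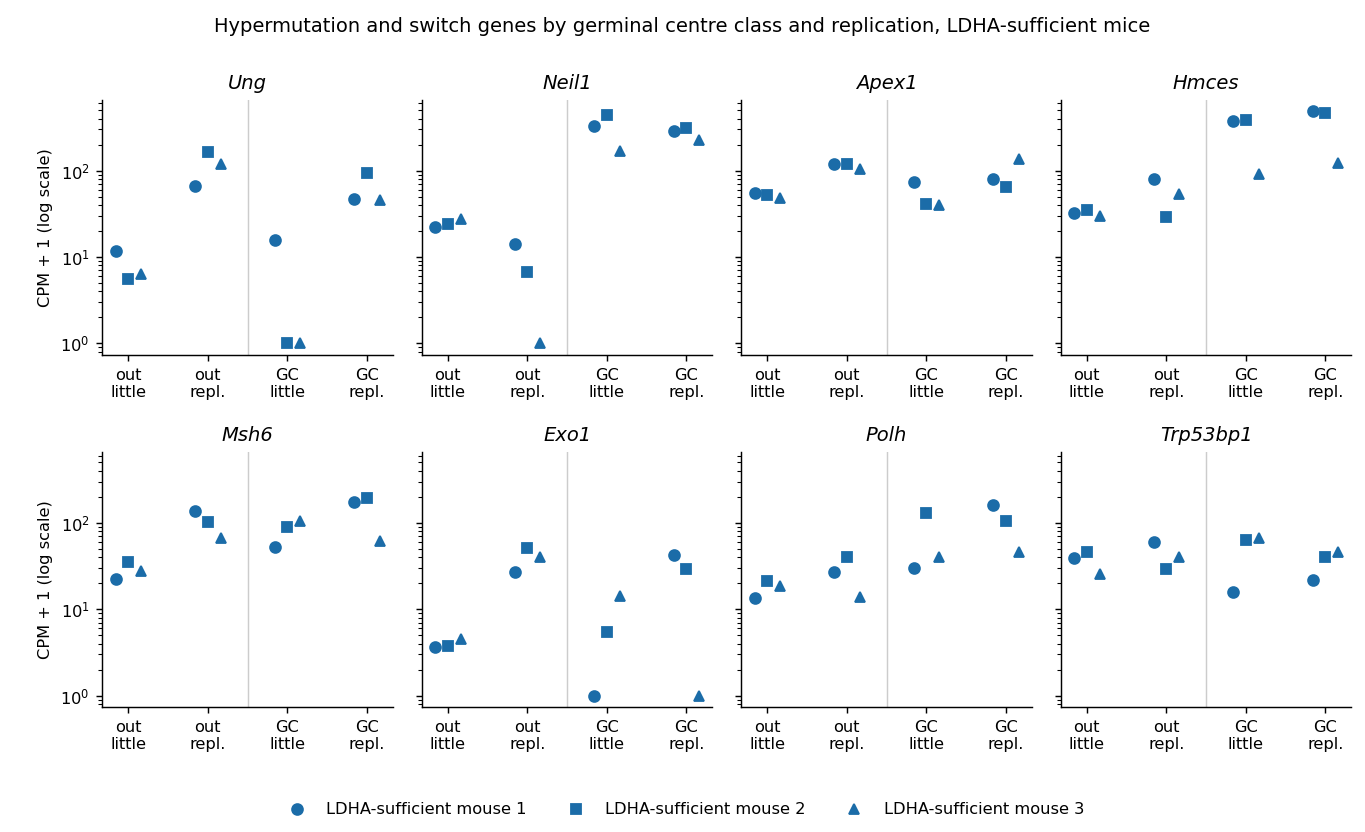
Levels of the 8 genes as CPM + 1 (vertical axis, log scale) in replicating cells (at least 0.3% of UMIs from the S phase list) and in the other cells, inside and outside the GC, 1 point per mouse. Neil1 and Hmces separate the GC from outside on both sides of the S phase border, across which G2/M genes also differ between the classes, whereas Ung, Exo1 and Msh6 outside the GC are high in the replicating cells of each mouse.

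Replicating cells were then compared with the other cells of the same class. The groups were set by S phase transcripts of the same cells, so these tests are not independent of the split. Outside the GC, in 4 mice (the 3 LDHA-sufficient and LDHA-deficient mouse 3), Ung measured 65.6, 163.5, 117 and 44.7 CPM in replicating cells against 10.7, 4.65, 5.32 and 15.1 CPM in the others. Exo1 measured 26.3, 50.8, 39.0 and 53.6 CPM against 2.66, 2.79, 3.55 and 4.30 CPM, and Msh6 137.8, 101.5, 65.01 and 125.1 CPM against 21.3, 34.4, 26.6 and 27.97 CPM. None of the 3 overlapped, and their log2 differences were 3.29 (SE 0.45) for Ung, 3.46 (SE 0.52) for Exo1 and 1.83 (SE 0.31) for Msh6, with edgeR adjusted p of 1.57e-05, 3.67e-05 and 0.000153. They were 3 of 8 genes tested, where 16.6% of all genes were called and 9.23% called higher. The replicating cells were of other classes than the rest: over all mice, the 54 were 27 activated, 17 marginal zone, 5 unnamed, 4 interferon-response and 1 follicular B-like cells, although 646 of the 1617 cells outside the GC were follicular B-like. Ung was also highest in the activated class, and the part of class in the result was not tested.

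Neil1 was lower in the replicating cells of 4 of 4 mice, at 6.93 ± 5.54 against 23.4 ± 2.26 CPM from 4 and 100 UMIs, and did not pass (-1.71, SE 0.65; edgeR adjusted p = 0.0746). Apex1 (0.77, SE 0.28), Polh (0.71, SE 0.46), Hmces (0.29, SE 0.39) and Trp53bp1 (0.37, SE 0.38) did not pass, with edgeR adjusted p of 0.0595, 0.335, 0.684 and 0.581. Without LDHA-deficient mouse 3 Apex1 was called (0.98; edgeR adjusted p = 0.0343). Of 61 listed genes, 18 rose and 0 fell, with a median log2 difference of 0.58 against -0.02 over all genes. Pcna (2.75, SE 0.19), Lig1 (3.36, SE 0.24), Neil3 (4.51, SE 0.47) and the flap endonuclease Fen1 (2.42, SE 0.29) led them, with edgeR adjusted p of 4.06e-10, 7.48e-10, 2.28e-07 and 2.4e-06. Without LDHA-sufficient mouse 2, 11 listed genes were called.

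Inside the GC none of the 5 genes tested was called between replicating and other cells of LDHA-sufficient mice, where 3.38% of all genes were called and 2.58% called higher. Neil1 (-0.24, SE 0.24), Hmces (0.29, SE 0.22), Polh (0.54, SE 0.42), Apex1 (0.60, SE 0.40) and Msh6 (1.03, SE 0.34) had edgeR adjusted p of 0.651, 0.546, 0.546, 0.481 and 0.113. Of the 5, 1 had an unadjusted p under 0.05 (Msh6), against 562 of 3369 over all genes, and DESeq2 called 0. Ung and Exo1 were under the filter, and their counts are given with exact 95% intervals for counting error alone. Ung had 84 UMIs in replicating and 2 in the other GC cells, a ratio of 14.7 (3.95 to 123), and Exo1 42 and 2, a ratio of 7.35 (1.91 to 62.7).

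Of 37 listed genes, 4 rose in replicating GC cells: Pcna (2.22, SE 0.28), Lig1 (3.01, SE 0.36), Fen1 (1.84, SE 0.38) and the ubiquitin ligase Rnf168 (2.15, SE 0.57), with edgeR adjusted p of 7.73e-05, 9.48e-05, 0.00795 and 0.0466. Without LDHA-sufficient mouse 3, which had 6 replicating GC cells, 11 listed genes were called, and Ung, Exo1 and Msh6 were among them. The 3.38% of all genes is of the fit with all 3 mice. The share without mouse 3 is not given, so these calls are not read as a result about the listed genes. Without LDHA-sufficient mouse 1 or mouse 2, 2 listed genes were called.

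The heavy chain library carries the product of these enzymes. Of the B-lineage cells, 1111 had a usable heavy chain, after 3 junctions found in 3 or more mice, all IgA, were left out. A chain was called mutated where its V identity, the fraction of V bases equal to the germline gene, was below 0.99. There were 69 mutated and 1042 unmutated chains, and 50 switched chains (IgG or IgA) against 1061 IgM or IgD chains. In all, 421 V substitutions in 60 clones were counted once per clone, position and change.

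The spread of changes within a clone, as grouped in the authors' deposited table, is shown by the 2 clones with the most mutated cells of 1 mouse among those with switched and unswitched cells. Sequences run 5′ to 3′ over the sequenced V part, as deposited, with the germline first; capitals mark substitutions, and positions count from 1 at the first V base of the germline. Clone 1, in LDHA-sufficient mouse 2, used IGHV5-17*01 and had 6 cells, of which 4 were mutated and 2, both IGHG2B, were not. Its mutated cells carried 4 different constant genes, IGHG3, IGHG2B, IGHG2C and IGHM, with 3, 6, 7 and 9 changes. Its cells held 3 different junctions. Cells 1 to 3 share A166G and G279A, which cell 4 lacks, and 0 changes are in every mutated cell.
Clone 1 germline: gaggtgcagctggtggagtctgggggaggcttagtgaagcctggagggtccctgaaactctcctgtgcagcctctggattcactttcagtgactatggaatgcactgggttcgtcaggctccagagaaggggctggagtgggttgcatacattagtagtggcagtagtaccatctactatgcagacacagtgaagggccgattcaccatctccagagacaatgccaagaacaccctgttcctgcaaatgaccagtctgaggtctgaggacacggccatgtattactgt
Clone 1 cell 1, IGHG3: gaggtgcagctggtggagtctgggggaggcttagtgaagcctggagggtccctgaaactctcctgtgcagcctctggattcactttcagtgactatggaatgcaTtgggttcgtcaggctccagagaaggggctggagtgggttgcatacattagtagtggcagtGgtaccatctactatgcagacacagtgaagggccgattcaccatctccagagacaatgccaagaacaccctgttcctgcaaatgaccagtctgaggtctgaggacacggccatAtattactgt
Clone 1 cell 2, IGHG2B: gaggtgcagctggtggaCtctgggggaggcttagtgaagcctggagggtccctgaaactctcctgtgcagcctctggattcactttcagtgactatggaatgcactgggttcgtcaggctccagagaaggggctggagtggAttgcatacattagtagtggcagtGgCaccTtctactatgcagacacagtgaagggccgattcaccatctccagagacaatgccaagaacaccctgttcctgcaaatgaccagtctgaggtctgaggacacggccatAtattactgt
Clone 1 cell 3, IGHG2C: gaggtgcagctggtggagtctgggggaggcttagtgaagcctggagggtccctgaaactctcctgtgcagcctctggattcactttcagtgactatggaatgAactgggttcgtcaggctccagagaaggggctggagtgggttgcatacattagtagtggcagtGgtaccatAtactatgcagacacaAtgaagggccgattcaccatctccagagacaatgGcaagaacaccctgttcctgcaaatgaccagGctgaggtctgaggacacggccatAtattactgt
Clone 1 cell 4, IGHM: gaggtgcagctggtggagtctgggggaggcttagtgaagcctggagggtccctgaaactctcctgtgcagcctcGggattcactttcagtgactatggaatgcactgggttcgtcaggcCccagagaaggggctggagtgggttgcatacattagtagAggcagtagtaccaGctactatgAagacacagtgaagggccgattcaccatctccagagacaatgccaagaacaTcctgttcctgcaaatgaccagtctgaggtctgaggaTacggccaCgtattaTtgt

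Clone 2, in LDHA-sufficient mouse 1, used IGHV1-49*01 and had 3 cells, all mutated, with 3 different junctions. C98T is in every cell, and C285T in cells 2 and 3.
Clone 2 germline: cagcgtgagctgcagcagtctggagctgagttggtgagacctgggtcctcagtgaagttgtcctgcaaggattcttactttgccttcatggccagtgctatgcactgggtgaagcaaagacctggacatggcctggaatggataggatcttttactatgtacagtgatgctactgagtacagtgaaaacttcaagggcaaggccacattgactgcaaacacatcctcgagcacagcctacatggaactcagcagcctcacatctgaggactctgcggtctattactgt
Clone 2 cell 1, IGHG3: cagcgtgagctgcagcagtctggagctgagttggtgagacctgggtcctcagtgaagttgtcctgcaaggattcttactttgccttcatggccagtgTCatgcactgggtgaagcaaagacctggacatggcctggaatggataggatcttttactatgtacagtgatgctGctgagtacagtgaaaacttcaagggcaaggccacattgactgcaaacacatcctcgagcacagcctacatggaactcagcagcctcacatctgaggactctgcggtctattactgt
Clone 2 cell 2, IGHG3: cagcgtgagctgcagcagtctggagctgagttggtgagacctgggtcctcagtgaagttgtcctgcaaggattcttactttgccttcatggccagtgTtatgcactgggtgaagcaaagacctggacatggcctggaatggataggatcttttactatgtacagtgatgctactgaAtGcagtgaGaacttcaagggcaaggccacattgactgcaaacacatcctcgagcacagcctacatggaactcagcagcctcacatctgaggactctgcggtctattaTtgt
Clone 2 cell 3, IGHM: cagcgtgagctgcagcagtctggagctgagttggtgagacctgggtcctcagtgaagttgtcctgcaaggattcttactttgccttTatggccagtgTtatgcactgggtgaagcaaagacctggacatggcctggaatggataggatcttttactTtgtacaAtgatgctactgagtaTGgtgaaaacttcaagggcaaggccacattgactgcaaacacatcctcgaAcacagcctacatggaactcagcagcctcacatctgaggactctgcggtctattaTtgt

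Of the different changes, 9 of 21 in clone 1 and 6 of 13 in clone 2 were at A or T. Of the 3 junctions of clone 1, 1 was also in 1 IGHM cell of LDHA-deficient mouse 2, with a V identity of 0.98973. That is below the border of 0.99 for mutated chains. LDHA-deficient mouse 2 had 5 mutated chains, the fewest that the comparison of mutated with unmutated cells takes. Whether this cell came from the other mouse was not tested. All 7 printed cells were GC B-like, and their transcripts held UMIs of Hmces in 7 of 7 and of Neil1 in 6 of 7 cells, but none of Ung or Exo1. Clone 2 cell 1, with 17085 UMIs, had 26 of Hmces, 18 of Polh, 10 of Neil1 and 5 of Msh6. Clone 1 cell 1, with 27312 UMIs, had 18 of Hmces, 8 of Neil1 and 7 of Polh. In the smaller cells of 3711 to 8993 UMIs, a count of 0 leaves the level unknown.

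Over all mice, 43.2% of the 421 substitutions were at A or T, with 31.6% at A and 11.6% at T on the coding strand. Of those at C or G, 71.1% were in the triplets AAC, AGC, TAC or TGC (the C changed, or the G on the other strand), the deamination hotspot, against 27.7% of germline C and G bases. Of those at A or T, 64.8% had A or T next to them on the hotspot side, against 37.8% of germline A and T bases. Transitions made up 63.2% of changes at C or G.

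Cells with mutated chains were compared with unmutated cells of the same mouse in the 4 mice with at least 5 of each, LDHA-sufficient mice 1 to 3 and LDHA-deficient mouse 2. Hmces measured 400.5, 430.3, 101.5 and 306.9 CPM in mutated cells against 122.7, 135.1, 32.6 and 49.4 CPM. Neil1 measured 204.5, 297.2, 159.5 and 55.8 CPM against 74.3, 94.9, 32.6 and 26.5 CPM, and Polh 170.4, 121.7, 29.0 and 27.9 CPM against 27.4, 46.2, 16.8 and 12.4 CPM. The mutated sum held 35848 UMIs from 5 cells in LDHA-deficient mouse 2 and 68962 from 6 cells in LDHA-sufficient mouse 3. The Polh values of these 2 mice, and the Neil1 value of LDHA-deficient mouse 2, thus rest on few UMIs. All 3 genes were higher in mutated cells of every mouse, although mice overlapped. Their log2 differences were 1.72 (SE 0.24), 1.55 (SE 0.26) and 1.76 (SE 0.32), with edgeR adjusted p of 1.41e-09, 8.78e-07 and 4.8e-06.

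They were 3 of 7 genes tested, where 11.3% of all genes were called and 5.08% called higher. Msh6 was higher in 4 of 4 mice and did not pass (0.75, SE 0.29; edgeR adjusted p = 0.0804). Ung (0.28, SE 0.42), Apex1 (-0.08, SE 0.32) and Trp53bp1 (0.06, SE 0.37) did not pass, with edgeR adjusted p of 0.788, 0.941 and 0.962, and Exo1, with 15 UMIs against 51, was under the filter. Of 64 listed genes 9 rose and 0 fell (median 0.25 against -0.06 over all genes), among them Mbd4 (1.27, SE 0.26), Neil3 (1.81, SE 0.37), Lig1 (0.97, SE 0.27) and Rev3l, the catalytic subunit of polymerase zeta (0.86, SE 0.26), with edgeR adjusted p of 8.4e-05, 0.000307, 0.00838 and 0.0134.

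The mutated cells were mostly GC B-like, 45 of 69 (65.2%) against 50 of 1042 unmutated cells (4.80%), with 5 and 11 plasma cell-like cells, and the part of this in the result was not tested over all mice. Outside the GC there were 1 to 4 mutated cells per mouse and no fit was made, and within GC B-like cells 2 mice had enough of both, too few for a test. There Polh was at 231.2 against 89.65 CPM in mutated and unmutated cells of LDHA-sufficient mouse 1 and at 147.1 against 103.6 CPM in mouse 2, Hmces at 517.3 against 433.9 and 518.3 against 378.8 CPM, and Neil1 at 266.5 against 272.5 and 367.7 against 278.2 CPM. Polh and Hmces were thus higher in both mice, and Neil1 in 1 of 2. Of the 15 mutated GC B-like cells of LDHA-sufficient mouse 1, clone 2 cell 1 alone held 18 UMIs of Polh. Without LDHA-sufficient mouse 1 the Polh call was lost and 4 listed genes remained past the threshold; without mouse 2 there were 5, and with mutated chains set at an identity below 0.98 only Hmces was called.

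**Figure D3:**
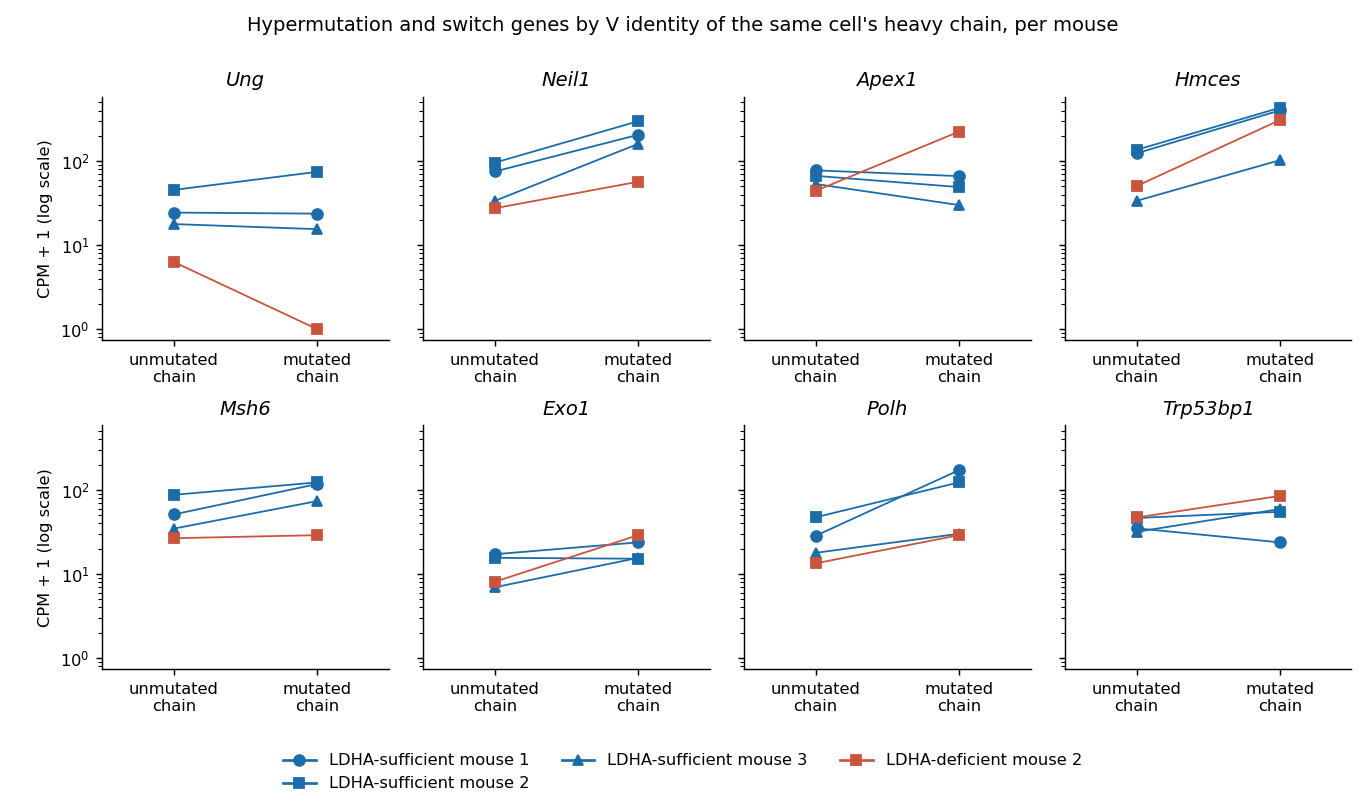
Levels of the 8 genes as CPM + 1 (vertical axis, log scale) in cells with mutated (V identity below 0.99) and unmutated heavy chains, with lines joining the values of 1 mouse. Lines of Hmces, Neil1, Polh and Msh6 rise to the mutated side in all 4 mice, and those of Ung and Apex1 do so in 1 of 4.

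Switched cells were compared with unswitched cells of the same mouse in the 3 LDHA-sufficient mice. None of the 7 genes tested was called, and none of the 63 listed genes, where 1.35% of all 7110 genes tested were called. At an unadjusted p under 0.05 there were 12 of 63 listed genes, 5 of the 8 among them, against 933 of 7110 over all genes. DESeq2 called 0 listed genes. Neil1 measured 224.8, 294.9 and 26.4 CPM in switched against 75.01, 114.5 and 42.4 CPM in unswitched cells, and Hmces 335.6, 446.7 and 26.4 CPM against 149.2, 160.2 and 38.3 CPM. Both were higher in mice 1 and 2 and lower in mouse 3 (log2 differences 1.24, SE 0.30, and 1.13, SE 0.28; edgeR adjusted p of 0.0724 and 0.0812).

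Without LDHA-sufficient mouse 3, Hmces, Neil1 and Msh6 were called higher among 7 listed genes. The 1.35% of all genes is of the fit with all 3 mice. The share without mouse 3 is not given, so these calls are not read as a result about the listed genes. Of the switched cells, 27 of 50 (54%) were GC B-like against 68 of 1061 unswitched cells (6.41%), but 1 of 8 switched cells of mouse 3. Plasma cell-like were 7 of 50 switched cells, 2 of the 8 of mouse 3 among them, against 9 of 1061. The 9 plasma cell markers summed to 13286, 1978 and 33546 CPM in switched cells of mice 1 to 3 against 1817, 1766 and 1044 CPM in unswitched cells, with Sdc1 and Tnfrsf17 at 0 in those of mouse 2; their part in the result was not tested. Apex1 was lower in switched cells of 3 of 3 mice, at 34.5 ± 15.2 against 67.0 ± 12.8 CPM, and did not pass (-0.81, SE 0.33; edgeR adjusted p = 0.32). Polh (1.93, SE 0.58), Msh6 (0.78, SE 0.33), Ung (0.68, SE 0.41) and Trp53bp1 (0.04, SE 0.41), the break protein that switching needs, had edgeR adjusted p of 0.214, 0.342, 0.529 and 0.991, and Exo1, with 10 UMIs against 47, was under the filter. The listed genes with the smallest p were Mbd4 (1.09), Msh3 (0.89), Fen1 (0.80) and Neil3 (1.11), with edgeR adjusted p of 0.111, 0.205, 0.22 and 0.3.

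The last question was what LDHA deficiency did to these genes. Over all B-lineage cells, Neil1 measured 117.0, 145.0 and 40.8 CPM in LDHA-sufficient mice 1 to 3 and 21.6, 25.8 and 28.5 CPM in LDHA-deficient mice 1 to 3. Polh measured 56.7, 56.3 and 18.98 CPM against 11.2, 12.6 and 22.0 CPM, and Hmces 186.9, 190.6 and 36.6 CPM against 45.6, 60.7 and 55.1 CPM. Neil1 did not overlap between genotypes, whereas LDHA-sufficient mouse 3 lay among the LDHA-deficient mice in Polh and below all 3 of them in Hmces. Their log2 differences, LDHA-deficient minus LDHA-sufficient, were -1.99 (SE 0.54), -1.58 (SE 0.46) and -1.34 (SE 0.68), with edgeR adjusted p of 0.182, 0.158 and 0.412.

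Msh6 measured 75.3, 89.7 and 33.0 CPM against 32.0, 30.6 and 45.0 CPM, and Ung 24.9, 41.7 and 12.7 CPM against 16.8, 7.21 and 17.4 CPM. Exo1 measured 16.3, 14.1 and 5.62 CPM against 4.003, 6.61 and 10.1 CPM. In these 3 genes the values of LDHA-sufficient mice 1 and 2 were the high ones and the genotypes overlapped (log2 differences -0.91, SE 0.35, -1.01, SE 0.46, and -0.85, SE 0.40; edgeR adjusted p of 0.256, 0.312 and 0.29). Apex1 (-0.15, SE 0.15) and Trp53bp1 (0.27, SE 0.20) had edgeR adjusted p of 0.622 and 0.527.

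None of the 8 genes and none of 71 listed genes was called, where 1.59% of all 9129 genes were. At an unadjusted p under 0.05 there were 14 of 71 listed genes (3 of the 8), against 1587 of 9129 over all genes. DESeq2 called 2 listed genes, Neil1 and Polh, and its share over all genes is not given. The median log2 difference of the listed genes was -0.20 against 0.02 over all genes. The smallest p belonged to Xrcc1 (-0.67), the end resection factor Rbbp8 (-0.63), Neil3 (-1.33) and the deubiquitinase Usp1 (-0.52), with edgeR adjusted p of 0.0899, 0.1, 0.131 and 0.147. Without LDHA-sufficient mouse 3, 22 listed genes were called, all lower, and 6 of the 8 were among them: Exo1, Hmces, Msh6, Neil1, Polh and Ung. The 1.59% of all genes is of the fit with all 6 mice. The share without mouse 3 is not given, so the 22 and the 6 are not read as a result about these genes. The GC share was 18.7%, 21.1% and 4.24% against 1.85%, 1.40% and 0.429%, and the summed S phase genes 3104, 3415 and 1489 against 1371, 1156 and 1686 CPM. Both were, like these 6 genes, highest in LDHA-sufficient mice 1 and 2. The S phase sums overlapped between genotypes. Within the LDHA-deficient mice the GC share, from 5, 5 and 1 GC B-like cells, fell from mouse 1 to mouse 3. Neil1, Polh and Exo1 rose in that order, and Ung, Msh6 and Hmces did not rise at each step. The 9 plasma cell markers (3467, 1689 and 3724 against 1486, 903 and 1293 CPM) did not overlap between genotypes. The part of these in the result was not tested by this comparison.

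**Figure D4:**
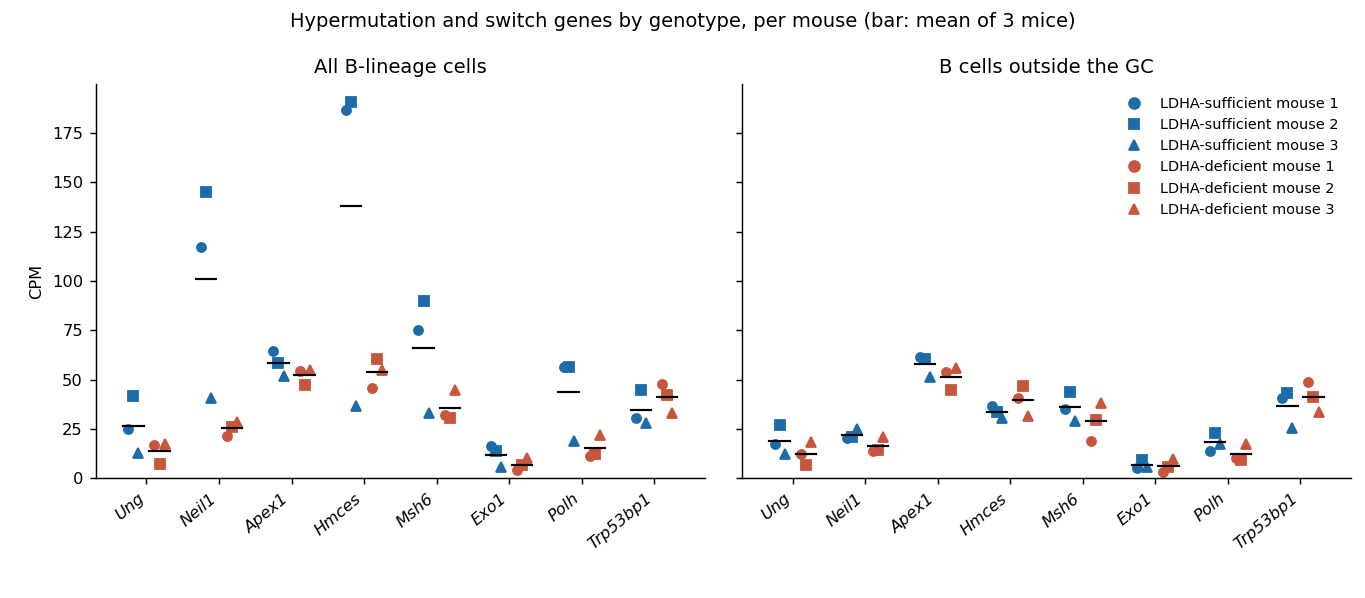
Levels of the 8 genes in CPM (vertical axis) per mouse in all B-lineage cells and in B cells outside the GC, by genotype, with a bar at the mean of 3 mice. In all B-lineage cells LDHA-sufficient mice 1 and 2 are the high points of Neil1, Hmces, Polh and Msh6, and outside the GC the genotypes overlap in each of the 8 genes.

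Outside the GC, where the GC share drops out, the genotypes overlapped in each of the 8 genes. The share of all genes that overlapped is not given, so this count is not read as a result about the 8. Neil1 measured 20.3, 20.7 and 24.9 CPM against 13.9, 14.4 and 21.1 CPM, and Hmces 36.7, 33.5 and 30.7 CPM against 40.9, 47.1 and 31.7 CPM. Ung measured 17.2, 27.1 and 12.5 CPM against 12.2, 6.90 and 18.2 CPM, and Polh 14.1, 23.1 and 17.4 CPM against 10.4, 9.41 and 17.3 CPM. The log2 differences were -0.44 (SE 0.27) for Neil1, 0.26 (SE 0.19) for Hmces, -0.69 (SE 0.33) for Ung, -0.61 (SE 0.31) for Polh, -0.33 (SE 0.21) for Msh6, -0.20 (SE 0.16) for Apex1 and 0.17 (SE 0.19) for Trp53bp1, with edgeR adjusted p from 0.775 to 0.93. Exo1 had 26 UMIs in the first genotype and 23 in the second and was under the filter.

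None of 67 listed genes was called there, where 0.0917% of all genes were, and DESeq2 called 0. At an unadjusted p under 0.05 there were 3 of the 67, against 549 of 8725 over all genes. The median of the listed genes was -0.01. The smallest p belonged to Mre11a (0.42), Lig1 (-0.44), Rbbp8 (-0.38) and Shld2 (-0.40), with edgeR adjusted p of 0.775, 0.783, 0.82 and 0.821. The 2 genotypes were not shown to be alike: the SE of 0.16 to 0.33 leaves room for differences of the size measured.

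In GC B-like cells only 10 cells stood for LDHA deficiency, 5 in each of 2 mice. Neil1 measured 296.7, 347.2 and 196.0 CPM against 152.6 and 281.8 CPM, and Hmces 464.5, 441.4 and 105.0 CPM against 83.2 and 366.4 CPM, both overlapping. The log2 differences were -0.31 (SE 0.35) for Neil1, -0.58 (SE 0.91) for Hmces, -0.84 (SE 0.62) for Polh, 0.60 (SE 0.44) for Apex1 and 0.00 (SE 0.45) for Msh6, and the edgeR adjusted p ranged from 0.649 to 1. The SEs are larger than or close to the differences, so none was detectable at this depth. LDHA-deficient mouse 1, the low one of Neil1 and Hmces, had the GC markers at 513 CPM against 1806 to 2392 CPM in the other 4 mice. With LDHA-sufficient mouse 3 left out, the differences were -0.46 for Neil1, -0.91 for Hmces and -1.04 for Polh, and none was called. Ung (8 UMIs in LDHA-deficient and 86 in LDHA-sufficient mice), Exo1 (2 and 44) and Trp53bp1 (6 and 59) were under the filter.

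None of 35 listed genes was called, where 0.0% of all genes were. At an unadjusted p under 0.05 there was 1 of the 35, against 330 of 2924 over all genes. That was Swap70, a switch cofactor, at 238 ± 102 against 574 ± 23 CPM (-1.15, SE 0.28; edgeR adjusted p = 0.163). DESeq2 called 0. Lig1 (0.44), Ercc6l2 (-1.06) and Rad18 (0.80) followed, with edgeR adjusted p of 0.563, 0.634 and 0.637. The difference between GC and other B cells was not called different between genotypes for any of the 7 genes tested, where 0.245% of all genes were. The 7 had no unadjusted p under 0.05, against 712 of 8173 over all genes, and DESeq2 was not run on this term. Of 68 listed genes, Swap70 was the 1 called (-1.36, SE 0.29; edgeR adjusted p = 0.0187), and leaving out LDHA-sufficient mouse 1 (edgeR adjusted p = 0.0773), 2 (0.161) or 3 (0.051) or LDHA-deficient mouse 1 (0.494) lost the call. It was also lost with the hashtag ratio (-0.82; edgeR adjusted p = 0.299), at Leiden resolution 0.4 (-0.997; 0.492) and with cell cycle genes kept in the clustering (-0.34; 0.854). Lig1 (1.07) had an edgeR adjusted p of 0.221, and for Xrcc4, at 0 counts in LDHA-deficient GC cells, no fold is given.

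The outcome on the heavy chains was read per mouse. Mutated chains were 21 of 202 (10.4%), 30 of 204 (14.7%) and 6 of 192 (3.13%) in LDHA-sufficient mice, and 3 of 155 (1.94%), 5 of 230 (2.17%) and 4 of 128 (3.13%) in the deficient ones. LDHA-sufficient mouse 3 and LDHA-deficient mouse 3 met at 3.13%, so the groups touched. The means were 9.41% ± 5.85 and 2.41% ± 0.63 (SD, n = 3 each), and an exact two-sided permutation test gave p = 0.2. Without LDHA-sufficient mouse 3 the difference of -7.00 percentage points became -10.1, and without mouse 2 it was -4.35. The groups were apart without mouse 3, without LDHA-deficient mouse 3, with single-contig barcodes only (-7.86), and at an identity below 0.98 (-3.79).

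Switched chains were 19 of 202 (9.41%), 18 of 204 (8.82%) and 8 of 192 (4.17%) in LDHA-sufficient mice against 2 of 155 (1.29%), 3 of 230 (1.30%) and 0 of 128 in LDHA-deficient mice, where a count of 0 allows up to 2.34%. The groups did not overlap (7.47% ± 2.87 against 0.865% ± 0.749, n = 3 each), and the exact two-sided permutation p of 0.1 is the smallest that 3 against 3 mice can give. The difference of -6.60 percentage points became -8.25 without LDHA-sufficient mouse 3. With the 3 junctions shared between mice kept, the means were 11.2% and 4.34%. The GL7 gate and the GC share can set both shares. Exact 95% intervals of single mice, for counting error, ran from 6.55% to 15.5% in LDHA-sufficient mouse 1 and from 0.401% to 5.55% in LDHA-deficient mouse 1 for mutated chains.

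The LDHA-sufficient chains were 440 IGHM, 113 IGHD, 15 IGHG2B, 11 IGHG3, 9 IGHA, 8 IGHG2C and 2 IGHG1, and the LDHA-deficient chains 356 IGHM, 152 IGHD, 3 IGHA and 2 IGHG2B. The share of substitutions at A or T, which the Msh6 and Polh route makes, was 53 of 130 (40.8%), 64 of 163 (39.3%) and 29 of 59 (49.2%) in LDHA-sufficient mice. In LDHA-deficient mice it was 13 of 19 (68.4%), 11 of 23 (47.8%) and 12 of 27 (44.4%). The groups overlapped, with means of 43.1% ± 5.33 and 53.6% ± 13.0 (n = 3 each; exact two-sided permutation p = 0.3). The difference between these means was 6.58 percentage points without LDHA-deficient mouse 1 and 13.4 without LDHA-sufficient mouse 3, where the groups did not overlap. With single-contig barcodes only it was 13.2 and the groups did not overlap (exact two-sided permutation p = 0.1).

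**Figure D5:**
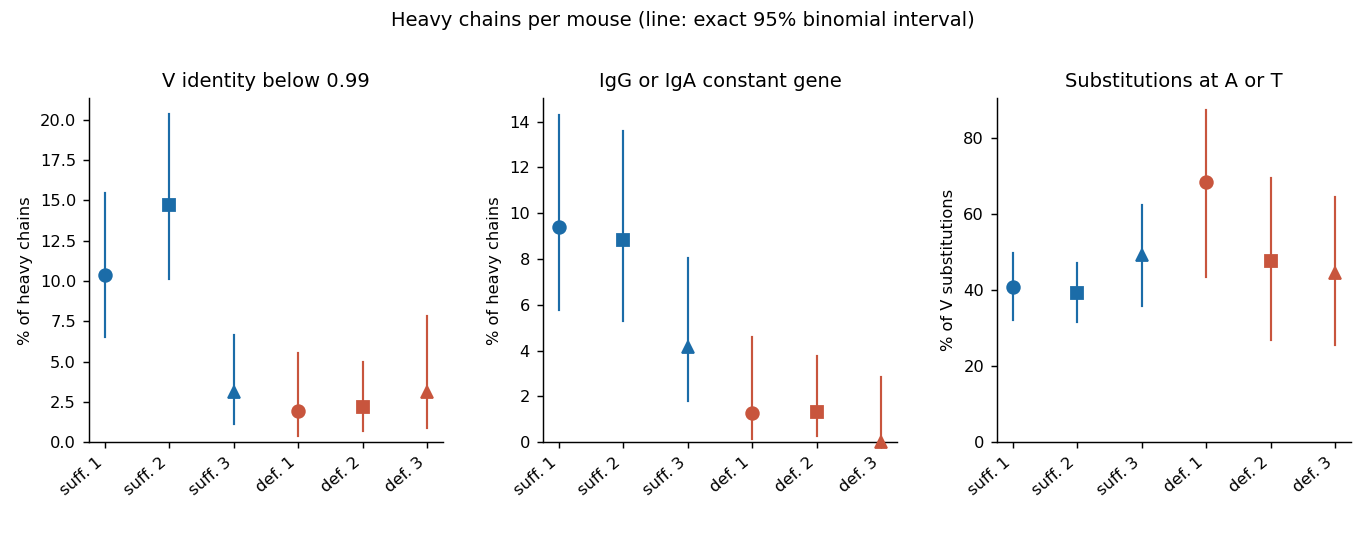
Share of heavy chains mutated, share switched, and share of V substitutions at A or T (percent, vertical axes), 1 point per mouse with its exact 95% binomial interval, by genotype. Only the switched share has the genotypes apart, with LDHA-sufficient mice at 4.17% to 9.41% and LDHA-deficient mice at 0 to 1.30%.

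The genes most alike to each of the 8 were read from Pearson's r of log2(CPM + 1) over 31 sums of a mouse and a class, 2 of them GC, among genes with at least 100 UMIs. Such sums share 1 lane and differ in depth, so r is a description. Neil1 was nearest to Pou2af1 (0.81), Arpc5l (0.78) and Cpsf2 (0.76), and Hmces to S1pr2, Mprip (0.74 each) and Phf6 (0.73). Polh was nearest to Nsd2 (0.81), Nasp and Haus5 (0.80 each), Msh6 to Alyref (0.82), Hspa4 and Rif1 (0.79 each), and Exo1 to Ndc1 (0.86), Pnn (0.81) and Hspa4 (0.79). Ung was nearest to Hsp90aa1 (0.87), Nme1 (0.86) and Hsp90ab1 (0.85), Apex1 to Mthfd1 (0.88), Polr1c and Mrto4 (0.79 each), and Trp53bp1 to Smu1 (0.62), Pik3c3 (0.61) and Diaph2 (0.59).

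Among the 8, the highest values were Msh6 with Polh (0.68), Apex1 with Ung (0.67), Exo1 with Polh (0.65), Exo1 with Msh6 (0.63) and Hmces with Neil1 (0.60). Neil1 and Ung, both glycosylases, stood at 0.09, and Neil1 and Apex1 at -0.04.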

How the data were processed

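The authors deposited raw UMI counts per gene and barcode, hashtag counts per barcode, and heavy chain contigs with V identity as a fraction. Cell Ranger 6.0.0, Seurat 4.2.1 and mm10 are named per the submitters' processing notes, and cellranger 6.0.2 per the file headers; no source used here names the germline aligner. Clone numbers and constant gene calls, of other kinds than measurements, were used as deposited. For 2 of the 3 libraries a label names blood stem cells, against the protocol; the B cell markers above were read instead.

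Barcodes were given to mice with HTODemux (Seurat 5.3.0, quantile 0.99), which also dropped 820 with more than 1 hashtag; undetected pairs of cells from 1 mouse are expected in about 167.2 of the rest (9.01%). Cells had at least 500 genes, 1000 UMIs and at most 10% mitochondrial UMIs; 65 of other lineages were dropped. Clustering (scanpy 1.11.5, 2000 variable genes, 30 components, 20 neighbours, Leiden 0.8) left out the machinery list and 771 genes following the cell cycle, the latter chosen after seeing the data, as was the rule for other lineages. Classes rest on at least 3 markers. Sums per mouse were tested with edgeR 4.0.16 (quasi-likelihood, TMM, filterByExpr; mouse as block within mice, from which both classes come), adjusted over all genes tested by Benjamini-Hochberg and called under 0.05, after tests on simulated data; p-values measure the spread between mice of 1 pool. Named are the 8, the 4 other listed genes with the smallest p per comparison and the 3 genes most alike to each. The members and lists were chosen with earlier results of these data known. Of 76 genes written in the list 75 matched a symbol; some genes of the pathway are not reported here. Ensembl identifiers and GRCm38 spans of the 8 (GENCODE) are Ung ENSMUSG00000029591, chromosome 5 114130386-114139323; Neil1 ENSMUSG00000032298, 9 57142800-57148305; Apex1 ENSMUSG00000035960, 14 50924968-50927139; Msh6 ENSMUSG00000005370, 17 87975062-87990892; Polh ENSMUSG00000023953, 17 46171355-46202645; Exo1 ENSMUSG00000039748, 1 175880581-175913489; Hmces ENSMUSG00000030060, 6 87913935-87936629; Trp53bp1 ENSMUSG00000043909, 2 121193281-121271407.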

Additional observations from a re-analysis of the deposited data

Results flagged for a closer look

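Of 24 differences within mice (log2 of CPM + 1) looked at for a mouse far from the others, 3 stood out; chance alone gives about 1 in 20. The rise of Ung in GC B-like cells was 2.90 in LDHA-deficient mouse 1, from 5 GC cells, against 0.71 to 1.26 in the other 4 mice. The rise of Hmces in mutated cells was 2.61 in LDHA-deficient mouse 2, from 5 mutated cells, against 1.61 to 1.70 in the 3 LDHA-sufficient mice. Apex1 in replicating cells outside the GC differed by -0.0601 in LDHA-deficient mouse 3, against 1.104 to 1.197 in the LDHA-sufficient mice.

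Swap70 differed more between GC and other B cells in 1 genotype than in the other: the test of the difference itself gave -1.36 (edgeR adjusted p = 0.0187). It rests on 10 LDHA-deficient GC cells and was past the threshold in 1 of the 8 alternatives run, without LDHA-deficient mouse 2 (-1.84; edgeR adjusted p = 0.0037); in the other 7 it ran from -1.39 to -0.34 with edgeR adjusted p of 0.051 to 0.854.

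Outside the comparisons, 36 cells carried 1 IgA junction that was found in all 6 mice.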

How the results depend on the processing

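Of the counts of listed genes called and the shares of heavy chains, 109 values under alternatives stayed within the limits of no change and 23 moved. Called over all B-lineage cells between genotypes were 0 listed genes, but 12 with no filter on low counts, 2 with DESeq2, 1 with hashtags called where the highest count was at least 3 times the second, and 0 to 22 leaving out 1 mouse (22 without LDHA-sufficient mouse 3). In GC B-like cells 0 became 1 with no filter, and 0 to 1 leaving out 1 mouse. For mutated chains 9 became 1 at an identity of 0.98, 17 at the higher threshold tried, and 4 to 12 leaving out 1 mouse. For switched chains 0 became 5 with no filter, 2 with the hashtag ratio, and 0 to 7 leaving out 1 mouse. Among replicating cells 3 became 5 with no filter, 6 with the hashtag ratio, and 2 to 4 leaving out 1 mouse. Among the other cells 11 became 5 with DESeq2, and 6 to 10 leaving out 1 mouse. Replicating against other GC cells gave 4, then 9 with no filter, 2 with DESeq2 and 2 to 11 leaving out 1 mouse; outside the GC 18 became 11 to 15. GC against other B cells gave 31, and 24 to 32 leaving out 1 mouse. Without the replicate block, that is without mouse as a term, GC against other B cells gave 31, mutated chains 8 (Hmces lost), switched chains 0, and replicating cells outside the GC 25. The cause of each move was not tested, except that a setting without a mouse has fewer samples.

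Directions that turned were all of values that did not pass the test. With cell cycle genes kept in the clustering, tried after seeing the data, the genotype difference outside the GC was 0.444 for Ung and 0.0124 for Apex1, and in GC cells 0.684 for Ercc6l2. With the hashtag ratio, that in GC cells was 0.0949 for Neil1 and 0.401 for Hmces; GC against other cells was -0.0887 for Apex1; switched cells gave -0.00556 for Trp53bp1; and replicating cells outside the GC gave -0.324 for Hmces and -0.00922 for Trp53bp1. In GC cells between genotypes Hmces was 0.0434 at Leiden 0.4, and Msh6 0.0236 with DESeq2 size factors and 0.0971 with DESeq2. Mutated cells gave 0.085 (DESeq2) and 0.214 (the higher threshold) for Apex1, and -0.00559 (no filter) and -0.00359 (identity 0.98) for Trp53bp1. With no filter Trp53bp1 was -0.0418 in switched cells and -0.035 in little replicating GC cells. Leaving out 1 mouse, the ranges that cross 0 were: genotype outside the GC, Trp53bp1 -0.00934 to 0.302; genotype in GC cells, Neil1 -0.889 to 0.00175, Msh6 -1.28 to 0.589 and Hmces -2.09 to 0.0537; GC against other cells, Trp53bp1 -0.526 to 0.0884; mutated cells, Ung -0.196 to 0.463, Apex1 -0.471 to 0.25 and Trp53bp1 -0.0685 to 0.338; switched cells, Ung -0.226 to 0.994 and Trp53bp1 -0.247 to 0.426; little replicating GC cells, Trp53bp1 -0.253 to 0.532; replicating GC cells, Polh -0.174 to 0.638; replicating cells outside, Hmces -0.287 to 0.547 and Trp53bp1 -0.0328 to 0.811.

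Mutated against unmutated cells outside the GC were not run, with 1 to 4 mutated cells per mouse. Depth limits Exo1 and Ung most, with 100 and 211 UMIs over all B-lineage cells, and the GC comparison of genotypes, with 10 LDHA-deficient cells.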

Other observations

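Substitutions at T on the coding strand were 8.46%, 9.20% and 10.2% of all substitutions in LDHA-sufficient mice 1 to 3 and 26.3%, 17.4% and 29.6% in LDHA-deficient mice 1 to 3, noticed after seeing the data and not tested; at A they were 32.3%, 30.1% and 39.0% against 42.1%, 30.4% and 14.8%. The LDHA-deficient values rest on 69 substitutions from 12 clones, and 29 of them came from 3 chains of IGHV9-3. None of the 69 was shared by 2 clones of the same V gene.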
